A study of Mus musculus with 41 samples.

Results

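Methylation of lysine 9 of histone H3 (H3K9) was approached here through the transcripts of 9 genes in androgenetic haploid embryonic stem cells (AG-haESCs), which carry a sperm genome only. The genes were taken by symbol: the methyltransferases Suv39h1, Suv39h2, Ehmt1 and Ehmt2, and the demethylases Kdm3a, Kdm3b, Kdm4a, Kdm4b and Kdm4c. They are 9 of 24028 gene symbols with FPKM values, in which fragments are scaled by transcript length and by the mapped fragments of the library, and all 9 were found in each of 13 RNA-seq libraries. The rule that took them names symbols and uses no measured value.

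SUV39H1 and SUV39H2 write the trimethyl mark at pericentric heterochromatin and at repeats, whereas EHMT1 (GLP) and EHMT2 (G9a) act as a heterodimer that mainly writes the mono- and dimethyl marks in euchromatin. KDM3A and KDM3B remove mono- and dimethyl groups. KDM4A, KDM4B and KDM4C remove tri- and dimethyl groups from H3K9 and also act on H3K36. These demethylases belong to the Jumonji family, which needs iron and 2-oxoglutarate. In embryonic stem cells H3K9 methylation silences repeats and germline genes, and at imprinted regions trimethylated H3K9 lies on the DNA-methylated copy, where the KRAB zinc finger protein ZFP57 and TRIM28 recruit SETDB1, a further H3K9 methyltransferase.

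The study asked whether haploid cells keep their paternal imprints in different media. 2i/L is serum medium with LIF, the Mek inhibitor PD0325901 and the Gsk3β inhibitor CHIR99021. In TSa2i/L the cells were derived with serum, LIF, the Src inhibitor CGP77675 and CHIR99021, and were then kept without serum, in SF/a2i/L, with the same inhibitors and LIF. All lines carry the strain label C57BL/6, and the study's text adds an actin-EGFP transgene for TSa2i-14. In 2i/L there were 3 wild-type libraries, passages 18, 39 and 50 of line 2i-14. In TSa2i/L there were 5, of which TSa2i-14 contributed passages 22, 47 and 54 while TSa2i-C57 contributed passages 9 and 58. Line 2i-O48 lacks both H19-DMR and IG-DMR, regions that control imprinting, and its derivative 2i-O48-TKO further lacks the gene H19; there was 1 library of either in 2i/L. Finally 2i-14 and the DMR-deleted lines were each sampled once after 5 passages in SF/a2i/L, and these cultures are called switched here. Their other passage numbers, and those of the DMR-deleted lines in 2i/L, are not in the labels. Libraries of a line are passages of that line, so p-values measure the spread between passages of few lines, not between independent derivations. For the switch they measure the spread between lines, of which 2i-O48-TKO is not independent of 2i-O48. Because 2i-14 was the only wild-type line in 2i/L, medium and line cannot be told apart in the wild-type comparison. The cells were sorted as haploid and grown on feeder fibroblasts, and libraries were made from small numbers of cells with amplified cDNA. In such bulk libraries fewer cells with a transcript and less of it per cell cannot be told apart.

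Embryonic stem cell markers were present throughout, with 9 or 10 of 10 at an FPKM of at least 1 in each library. Of 6 primitive endoderm markers at most 1 reached an FPKM of 1, and of 6 trophoblast markers at most 3 did. Fibroblast RNA was unequal: 10, 11 and 8 of 12 fibroblast markers reached an FPKM of 1 in 2i-14 p39, TSa2i-14 p54 and TSa2i-C57 p58, against 2 to 5 in the other 10 libraries. Dcn, a fibroblast proteoglycan gene, stood at 3.76, 58.2 and 19.6 FPKM in those 3 libraries, at 3.55 FPKM in TSa2i-14 p22 and between 0 and 0.873 FPKM elsewhere. H19, the gene deleted in 2i-O48-TKO, does not check the labels, since it was listed at 0 in 5 libraries and did not exceed 2.88 FPKM in any. Files gave no counts, and the depth implied by the smallest values was 12700000 to 20000000 fragments per library. At these depths the lowest of the 9 genes in a library, Kdm4a or Kdm4b, still rested on at least 9.78 fragments per kilobase.

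Promoter sequences are shown for Kdm3a and Ehmt2, which were lower in each switched line, and for Suv39h1, the methyltransferase with the highest level. They are RefSeq sequences of GRCm38.p6, run from 250 bases before to 50 bases after the first listed start site, and are read on the strand of the gene. The positions are chr6:71632868-71633167 on the minus strand for Kdm3a, chr17:34898224-34898523 on the plus strand for Ehmt2 and chrX:8074711-8075010 on the minus strand for Suv39h1. Capitals mark 3 motifs, found on either strand. The GC box was searched as GGGCGG. The letters CCAAT gave the CCAAT box. An E-box was searched as CACGTG.
Kdm3a: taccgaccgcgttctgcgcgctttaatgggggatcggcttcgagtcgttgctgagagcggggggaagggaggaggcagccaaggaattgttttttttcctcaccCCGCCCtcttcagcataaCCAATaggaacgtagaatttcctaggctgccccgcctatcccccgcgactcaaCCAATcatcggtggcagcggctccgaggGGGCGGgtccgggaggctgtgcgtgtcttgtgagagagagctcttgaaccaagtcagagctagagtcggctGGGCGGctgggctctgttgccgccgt
Ehmt2: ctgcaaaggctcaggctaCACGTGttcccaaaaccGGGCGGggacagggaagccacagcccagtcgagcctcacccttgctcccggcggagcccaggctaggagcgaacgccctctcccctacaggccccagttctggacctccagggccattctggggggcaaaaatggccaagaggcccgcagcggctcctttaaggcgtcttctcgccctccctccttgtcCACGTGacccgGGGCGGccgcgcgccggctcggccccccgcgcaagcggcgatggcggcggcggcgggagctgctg
Suv39h1: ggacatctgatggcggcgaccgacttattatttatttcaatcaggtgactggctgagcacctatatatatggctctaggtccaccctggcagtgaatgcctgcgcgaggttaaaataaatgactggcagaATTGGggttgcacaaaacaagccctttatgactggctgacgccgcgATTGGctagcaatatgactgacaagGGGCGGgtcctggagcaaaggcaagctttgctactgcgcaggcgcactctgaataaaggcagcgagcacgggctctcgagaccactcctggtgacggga
The Kdm3a window held 3 GC boxes and 2 CCAAT boxes, and the Ehmt2 window held 2 GC boxes and 2 E-boxes. The Suv39h1 window held 1 GC box and 2 CCAAT boxes. Of 32851 mouse promoters of the same length, 35.7% held a GC box, 37.4% a CCAAT box and 7.15% an E-box. The windows held 24 CpG in Kdm3a, 28 in Ehmt2 and 15 in Suv39h1, against a median of 7 over all promoters. These counts stood at the 80, 85.8 and 65.4 percentiles of all promoters. Windows of other listed start sites differed. Another Kdm3a window held 0 CpG and none of the 3 motifs, and another Suv39h1 window held 37 CpG and no CCAAT box. Promoter entries were found for 7 of the 9 genes, and not for Kdm3b or Kdm4b.

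On the mm9 build (NCBIM37) the genes lie on 6 chromosomes as protein-coding genes. Suv39h1 spans 7638297 to 7651886 on chromosome X (minus strand). Suv39h2 spans 3373087 to 3392303 and Ehmt1 24646289 to 24775129 on chromosome 2, both on the minus strand. Ehmt2 spans 35035414 to 35050997 and Kdm4b 56465485 to 56542293 on chromosome 17, both on the plus strand. Kdm3a spans 71538968 to 71582899 on chromosome 6 (minus strand), Kdm4a 117809562 to 117852648 (minus) and Kdm4c 73888401 to 74051764 (plus) on chromosome 4, and Kdm3b lies on chromosome 18. No stretch of 50 bases in the coding transcripts of the 9 genes recurred in another coding gene, paralogs included. Exons on the opposite strand overlap 11.3% of the exon length of Suv39h1, from Gm14820, and 8.1% of that of Suv39h2, from Dclre1c, and such reads cannot be told apart where counting did not use strand.

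Suv39h1 was the most abundant of the 4 methyltransferase transcripts in 11 of 13 libraries. In 2i/L it stood at 10.96 FPKM (p18), 12.4 FPKM (p39) and 9.51 FPKM (p50) for 2i-14, with 11.7 FPKM for 2i-O48 and 11.2 FPKM for 2i-O48-TKO. In TSa2i/L it stood at 15.8 FPKM (p22), 15.8 FPKM (p47) and 16.1 FPKM (p54) for TSa2i-14, with 12.3 FPKM (p9) and 20.5 FPKM (p58) for TSa2i-C57. After the switch it stood at 13.1 FPKM for 2i-14, 9.54 FPKM for 2i-O48 and 10.7 FPKM for 2i-O48-TKO. Of the 5 TSa2i/L libraries, 4 lay above all 8 others, which are of other lines, and TSa2i-C57 p9 lay among them. The share of all genes with such a pattern was not determined.

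Suv39h2 ran lower than Suv39h1 except in 2i-14 p50 and the switched 2i-O48 culture, and it was not called in any comparison. It was at 8.74, 7.23 and 11 FPKM at p18, p39 and p50 of 2i-14, at 6.44 to 10.4 FPKM with a median of 8.30 FPKM in TSa2i/L, at 11.6 and 9.93 FPKM in 2i-O48 and 2i-O48-TKO, and at 9.32 to 12.4 FPKM after the switch. All 4 groups overlapped.

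Ehmt2, the gene for the catalytic partner known as G9a, was higher in 2i/L than in most SF/a2i/L cultures. It was at 7.39 FPKM (p18), 10.3 FPKM (p39) and 7.40 FPKM (p50) for 2i-14, 8.52 FPKM for 2i-O48 and 11.1 FPKM for 2i-O48-TKO. In TSa2i/L it was at 5.30 FPKM (p22), 7.97 FPKM (p47) and 6.57 FPKM (p54) for TSa2i-14, with 4.81 FPKM (p9) and 5.35 FPKM (p58) for TSa2i-C57. After the switch it was at 4.06 FPKM for 2i-14, 4.67 FPKM for 2i-O48 and 5.34 FPKM for 2i-O48-TKO. The 3 switched libraries lay below all 5 libraries in 2i/L, and of the TSa2i/L libraries TSa2i-14 p47 alone reached the 2i/L range. Of all tested genes 29.4% were lower after the switch in all 3 pairs. The share with switched libraries below all 5 was not determined.

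Ehmt1 was the steadiest of the 9 on the log2(FPKM + 1) scale, with a range of 0.72 over the 13 libraries. Its level was 5.07 to 5.19 FPKM in the 3 libraries of 2i-14, 3.90 to 7.06 FPKM in TSa2i/L, 4.99 and 6.34 FPKM in 2i-O48 and 2i-O48-TKO, and 5.80 to 6.79 FPKM after the switch. All 3 switched cultures lay above the 3 cultures of 2i-14 in 2i/L, but 2i-O48-TKO in 2i/L and TSa2i-14 p47 reached the switched level. The switched cultures include the DMR-deleted lines, and the share of all genes that separate in this way was not determined.

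Kdm3a, whose product demethylates H3K9me1 and H3K9me2, varied most, with a range of 1.91 on the log2(FPKM + 1) scale. In 2i/L it was at 16.7 FPKM (p18), 15.4 FPKM (p39) and 10.4 FPKM (p50) for 2i-14, 16.0 FPKM for 2i-O48 and 10.7 FPKM for 2i-O48-TKO. In TSa2i/L it was at 9.63 FPKM (p22), 7.16 FPKM (p47) and 8.35 FPKM (p54) for TSa2i-14, with 3.70 FPKM (p9) and 11.4 FPKM (p58) for TSa2i-C57. After the switch it was at 4.96 FPKM for 2i-14, 5.93 FPKM for 2i-O48 and 5.74 FPKM for 2i-O48-TKO. The switched libraries lay below all 5 libraries in 2i/L, and TSa2i/L lay below 2i/L except for TSa2i-C57 p58. As for Ehmt2, the share of all genes with switched libraries below all 5 was not determined.

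Kdm3b stayed within a narrow range, from 3.36 FPKM in TSa2i-C57 p9 to 6.19 FPKM in 2i-14 p39. Its 3 switched libraries, at 4.27 FPKM (2i-14), 3.56 FPKM (2i-O48) and 3.95 FPKM (2i-O48-TKO), each lay below the same line in 2i/L, at 4.69, 4.80 and 4.07 FPKM. The differences within these pairs were smaller than the spread among the 3 wild-type 2i/L libraries, 4.69 to 6.19 FPKM.

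Among the KDM4 genes Kdm4c was the highest, at 3.86 to 9.50 FPKM, and both ends of that range were DMR-deleted lines in 2i/L, 2i-O48 and 2i-O48-TKO. In 2i/L Kdm4a was at 1.14 FPKM (p18), 1.22 FPKM (p39) and 1.41 FPKM (p50) for 2i-14, 3.10 FPKM for 2i-O48 and 2.47 FPKM for 2i-O48-TKO. It was at 0.770 to 2.47 FPKM in TSa2i/L, and after the switch at 1.1 FPKM for 2i-14, 2.15 FPKM for 2i-O48 and 2.17 FPKM for 2i-O48-TKO. The 4 libraries of the DMR-deleted lines thus all lay above the 4 libraries of 2i-14, in either medium. These are 2i-O48 and its derivative against a single line. In 2i/L alone these genotypes did not overlap for 19.6% of all tested genes, 11.9% being higher in the DMR-deleted lines. Kdm4b was at 0.834 to 3.56 FPKM, with 11 of the 13 libraries under 2 FPKM and 2i-O48-TKO in 2i/L the highest.

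**Figure D1:**
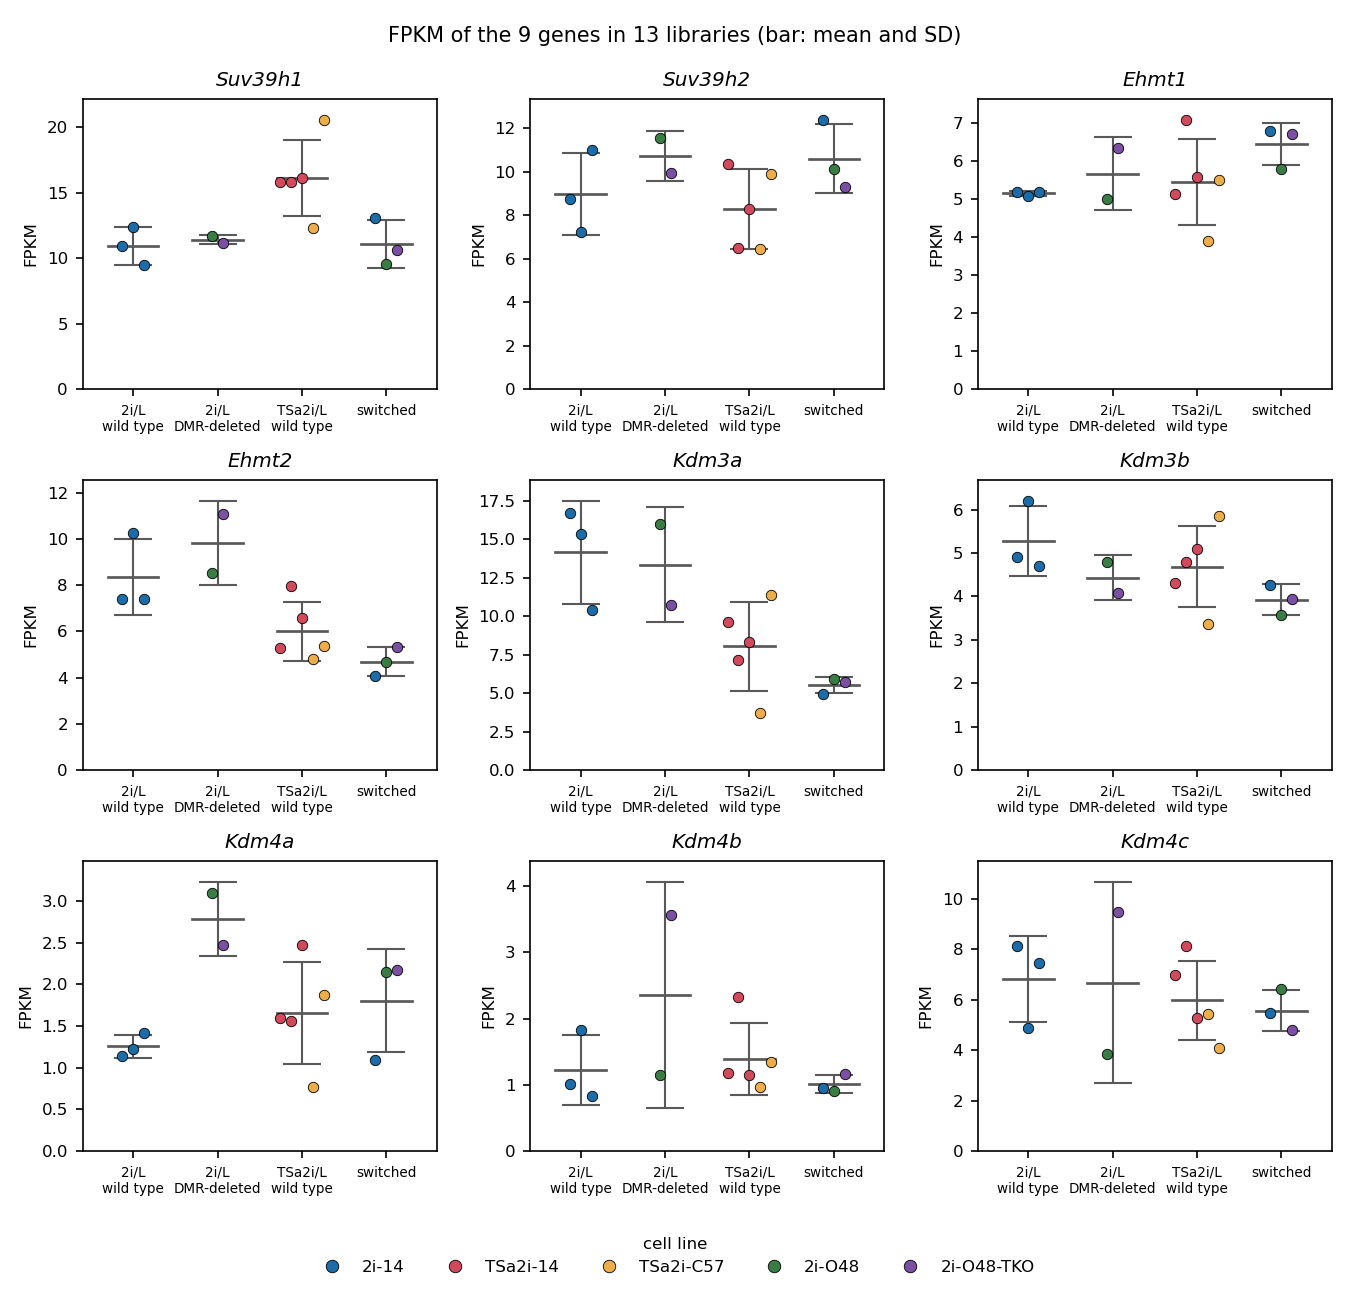
FPKM of each of the 9 genes (y axis, starting at 0) in 13 libraries, grouped by medium and genotype on the x axis. Points are libraries coloured by cell line, with the group mean as a line and the SD as a bar. The switched libraries, at 4.96 to 5.93 FPKM for Kdm3a and 4.06 to 5.34 FPKM for Ehmt2, lie below all 5 libraries in 2i/L. Kdm3a in TSa2i-C57 p9 lies lower still at 3.70 FPKM. The group mean of Suv39h1 is highest in TSa2i/L, where libraries run from 12.3 to 20.5 FPKM. For that gene TSa2i-C57 p9, the low end, lies below 2i-14 p39 and the switched 2i-14 library.

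Because FPKM is scaled by length, the genes can be ordered within a library. Suv39h1, Suv39h2 or Kdm3a was first in each of the 13 libraries, and Kdm4a and Kdm4b were the last 2 in all of them. Kdm3a was the highest of the 9 in 2i-14 p18, 2i-14 p39 and 2i-O48 but in place 4 to 6 in TSa2i-14 p47, TSa2i-C57 p9 and the 3 switched libraries. Among all genes with an FPKM above 0, Suv39h1 stood between the 70.1 and 77.7 percentiles of a library, and Kdm4a between the 32.7 and 53.4 percentiles.

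In wild-type cells the medium comparison set 5 TSa2i/L against 3 2i/L libraries. Suv39h1 averaged 16.1 ± 2.91 FPKM (SD, n = 5) in TSa2i/L against 10.95 ± 1.44 FPKM (SD, n = 3) in 2i/L, and Kdm3a averaged 8.05 ± 2.90 FPKM against 14.1 ± 3.33 FPKM. Ehmt2 averaged 6.00 ± 1.28 FPKM against 8.35 ± 1.66 FPKM. None of the 9 genes was called by limma at an adjusted p under 0.05, where 7.57% of 10387 tested genes were, 5.72% as higher and 1.85% as lower. With median centring, which moved the median change of all genes by -0.12, the higher share of the called genes was 56.2% instead of 75.6%. At an unadjusted p under 0.05 there were 2, Suv39h1 and Kdm3a, against 23.1% of all tested genes.

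On the log2(FPKM + 1) scale Suv39h1 was 0.51 higher (SE 0.189, limma adjusted p = 0.13), which is 1.42-fold with a 95% interval of 1.07 to 1.90. Kdm3a differed by -0.79 (SE 0.296, limma adjusted p = 0.134), a fold of 0.579 with an interval of 0.369 to 0.908. Ehmt2 differed by -0.42 (SE 0.202, limma adjusted p = 0.240). The other 6 genes differed by -0.17 to 0.20, with adjusted p from 0.629 to 0.922. No gene of the 9 separated the groups without overlap, as 16.5% of all tested genes did, 11.8% being higher and 4.72% lower. With median centring Kdm3a differed by -0.90 and Suv39h1 by 0.39. With the mean of the 12 fibroblast markers as a covariate the values were -0.85 for Kdm3a and 0.47 for Suv39h1, and without the 3 libraries richest in fibroblast RNA they were -0.94 and 0.47. An alternative chosen after seeing the data set all 8 libraries in SF/a2i/L, switched ones included, against all 5 in 2i/L, and there Kdm3a (-0.91, adjusted p = 0.0166) and Ehmt2 (-0.61, adjusted p = 0.0217) were called by limma. Switched and unswitched cultures of a line are counted as unrelated in that fit.

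Within TSa2i/L the 2 lines overlapped for all 9 genes. Kdm3a stood at 3.70 FPKM at p9 and 11.4 FPKM at p58 of TSa2i-C57, against 7.16 to 9.63 FPKM in TSa2i-14.

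The switch compared each line with itself. Its 3 libraries in 2i/L also serve the comparison of DMR-deleted with wild-type lines, and 2i-14 p50 serves the medium and passage comparisons. Kdm3a fell by 1.01 on the log2(FPKM + 1) scale (SE 0.212, limma adjusted p = 0.0447, lower in 3 of 3 lines), a fold of 0.497 with a 95% interval of 0.349 to 0.709. It was the only one of the 9 genes called, and 6.89% of 9759 tested genes were called, 4.66% as lower and 2.22% as higher. With median centring, which moved the median of all genes by 0.17, the higher share of the called genes was 55.1% instead of 32.3%. At an unadjusted p under 0.05 there were Kdm3a and Ehmt2 of the 9, against 26.1% of all tested genes. The FPKM ratio of the switched to the unswitched culture was 0.478 for 2i-14, 0.371 for 2i-O48 and 0.536 for 2i-O48-TKO. Switched cultures averaged 5.54 ± 0.513 FPKM (SD, n = 3) against 12.4 ± 3.15 FPKM (SD, n = 3).

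Ehmt2 came close behind, with a difference of -0.80 (SE 0.198, limma adjusted p = 0.0645) and a fold of 0.573 (95% interval 0.411 to 0.798). The FPKM ratio was 0.549 for 2i-14, 0.548 for 2i-O48 and 0.481 for 2i-O48-TKO. Its partner Ehmt1 was higher in 3 of 3 lines, by 0.20 (SE 0.199, adjusted p = 0.575), with FPKM ratios of 1.31, 1.16 and 1.06. Kdm3b and Kdm4a were lower in 3 of 3 lines, by -0.16 and -0.24 with adjusted p of 0.645 and 0.450, and Kdm3b stood at 0.0019 under median centring. With each library centred on its median, Kdm3b and Kdm4a were higher in 2i-O48-TKO, by 0.13 and 0.035, while Kdm3a and Ehmt2 stayed lower and Ehmt1 higher in 3 of 3 lines. In the background 29.4% of tested genes were lower and 19.4% higher in all 3 lines. Suv39h1 and Suv39h2 differed by 0.03 and -0.03, with 95% intervals of -0.51 to 0.57 and -0.52 to 0.45, and Suv39h2 stood at 0.13 under median centring and under quantile normalization. Within lines the sign of both depended on the scaling in the DMR-deleted lines, where Suv39h1 differed by -0.27 (2i-O48) and -0.064 (2i-O48-TKO) as deposited and by 0.011 and 0.10 with each library centred on its median. Kdm4b (-0.39) and Kdm4c (-0.21) differed in sign between lines.

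The call of Kdm3a was close to the threshold. Its difference stayed between -1.16 and -0.83 over 11 alternatives, with adjusted p from 0.0121 to 0.199 and 6 of the 11 under 0.05. It was not called under median centring (-0.84, adjusted p = 0.0547), quantile normalization, no filter on low values, or without line 2i-14 (adjusted p = 0.0532) or line 2i-O48-TKO (adjusted p = 0.199). Ehmt2 was called without line 2i-O48 (adjusted p = 0.0435) and when p18 and p39 of 2i-14 joined the controls (adjusted p = 0.0195), and its adjusted p ranged from 0.0195 to 0.431 over 11 alternatives. The summed FPKM of the 12 fibroblast markers was 75.1 to 84.5 in the switched and 118 to 187 in the paired 2i/L libraries. Sparc made up most of these sums, at 97.95 to 148.5 FPKM in 2i/L and 46.9 to 54 FPKM after the switch. Besides Sparc and Fn1, the other 10 markers stood at or under 1.50 FPKM in the 6 libraries, Dcn at 0 to 0.873 FPKM. The part of fibroblast RNA in these values was not tested.

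**Figure D2:**
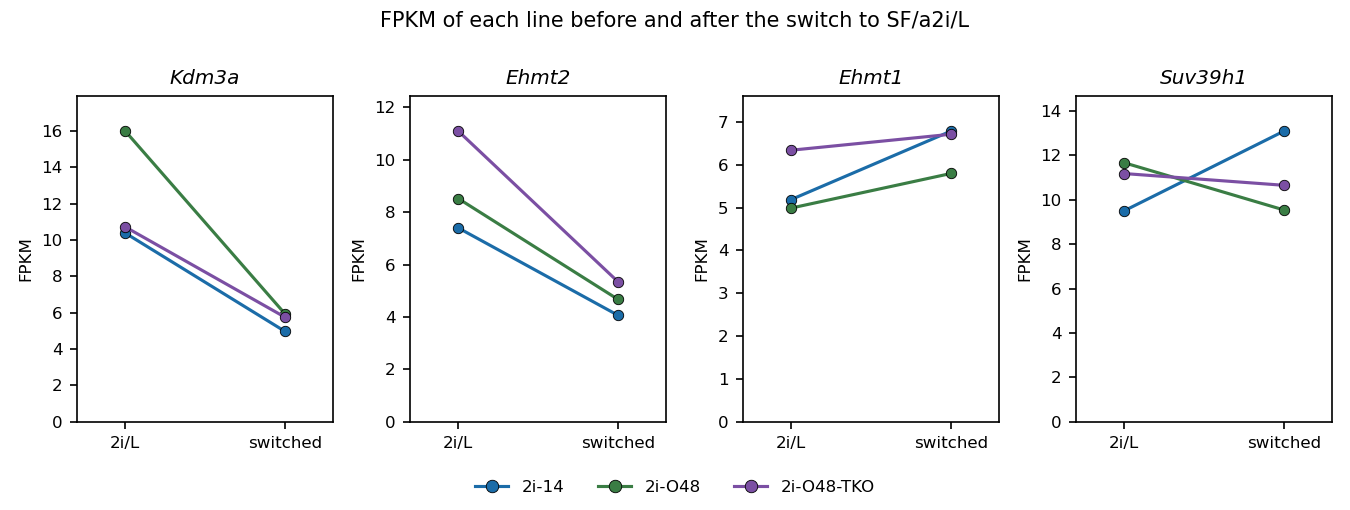
FPKM (y axis, starting at 0) of 4 of the genes in each line before and after the switch from 2i/L to SF/a2i/L, with a line joining the libraries of 1 cell line. The right end is the lower one for Kdm3a and Ehmt2 in 3 of 3 lines, the higher one for Ehmt1 in 3 of 3, and the higher one for Suv39h1 in 2i-14 alone.

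Late passages (above p30) were compared with early ones within the wild-type lines, 5 against 3 libraries. None of the 9 genes was called, nor was any of 10387 tested genes by limma (0% called); at an unadjusted p under 0.05 there were 0 of the 9 and 8.06% of all genes. The differences lay between -0.25 for Kdm4c and 0.30 for Kdm4a, with adjusted p from 0.708 to 0.999. Of the 9 genes, 7 differed upwards and 2 downwards, with a median of 0.20 against 0.02 over all tested genes, of which 53.2% differed upwards. The early library TSa2i-C57 p9 had the lowest sum of the 9 genes, 41.7 FPKM, and the lowest implied depth of the 13 libraries. Within TSa2i-C57 all of the 9 but Kdm4c differed upwards, whereas within 2i-14 the differences ran from -0.37 to 0.21. The lines did not share a direction for Kdm3a, which differed by -0.37 in 2i-14, -0.28 in TSa2i-14 and 1.40 in TSa2i-C57, where a single late library stood against a single early one. Without TSa2i-C57 p58 the Kdm3a difference was -0.33 instead of 0.14. At least 8 of the 12 fibroblast markers reached an FPKM of 1 in 3 late libraries and in no early one. Without those 3 libraries Kdm3a differed by -0.51 and Suv39h1 by -0.09, and with the fibroblast markers as a covariate by -0.10 and 0.08. No gene of the 9 was called in either fit.

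The DMR-deleted lines 2i-O48 and 2i-O48-TKO were set against the 3 libraries of 2i-14, all in 2i/L. The 2 groups differ in line as well as genotype, which cannot be told apart. None of the 9 genes was called by limma, where 0.118% of 10164 tested genes were, 0.0787% as higher and 0.0394% as lower. Kdm4a was 0.74 higher (SE 0.217, limma adjusted p = 0.491), at 2.78 ± 0.441 FPKM (SD, n = 2) against 1.26 ± 0.140 FPKM (SD, n = 3), and it was the only one of the 9 with an unadjusted p under 0.05, as 5.79% of all genes had. Its groups did not overlap, which held for 19.6% of all tested genes, 11.9% being higher and 7.74% lower. Ehmt2 (0.21), Suv39h2 (0.25) and Kdm3a (-0.08) differed by less than their 95% intervals, which ran from -0.39 to 0.81, -0.35 to 0.84 and -0.76 to 0.61. Kdm4b and Kdm4c differed more between 2i-O48 and 2i-O48-TKO, 1.15 and 3.56 FPKM and 3.86 and 9.50 FPKM, than between the group means.

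**Figure D3:**
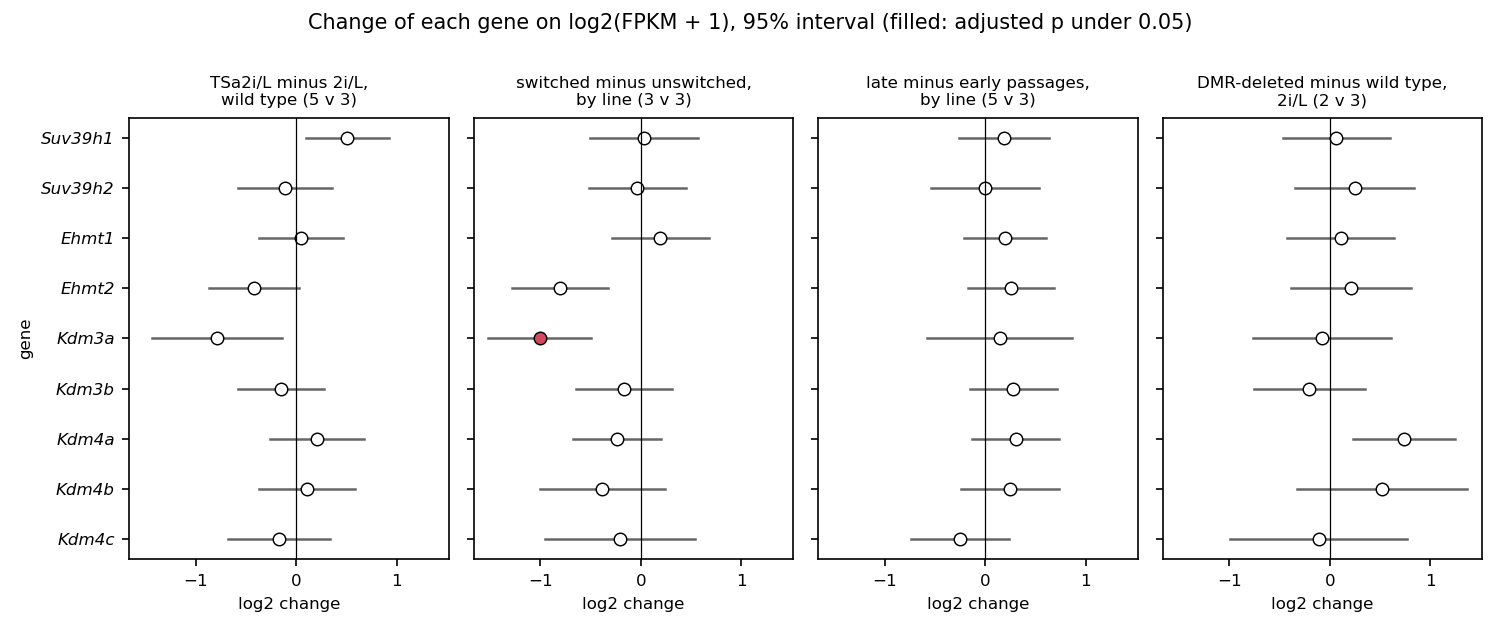
Change of each gene on the log2(FPKM + 1) scale (x axis) in the 4 comparisons, with 95% intervals from limma as lines. The filled point, Kdm3a after the switch at -1.01, is the only call at an adjusted p under 0.05, and the interval of Ehmt2 in the same panel, -1.28 to -0.33, also lies below 0.

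Levels of paralogs were then set against each other within a library, which needs no scaling between libraries. These shares are given as a description with no test. How many other pairs of genes separate the groups of libraries in the same way was not determined. In 2i/L Ehmt1 made up 41.3% (p18), 33.1% (p39) and 41.2% (p50) of the summed FPKM of Ehmt1 and Ehmt2 for 2i-14, 36.9% for 2i-O48 and 36.4% for 2i-O48-TKO. In TSa2i/L it made up 44.7% to 50.7% with a median of 47%, and after the switch 62.6% for 2i-14, 55.4% for 2i-O48 and 55.7% for 2i-O48-TKO. The 3 sets of libraries did not overlap, and the ratio of Ehmt1 to Ehmt2 thus ran from 0.494 to 0.702 in 2i/L, 0.810 to 1.03 in TSa2i/L and 1.24 to 1.67 after the switch. The TSa2i/L set shares no cell line with the others, so line and culture cannot be told apart there.

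Kdm3a made up 68.9% to 77.2% of the Kdm3a and Kdm3b sum in the 5 libraries in 2i/L, 52.5% to 69.1% in TSa2i/L and 53.7% to 62.4% after the switch. TSa2i-14 p22, at 69.1%, just passed the lowest 2i/L library. Suv39h1 made up 60.4% to 70.9% of the Suv39h sum in TSa2i/L but 48.5% to 53.3% after the switch, while 2i/L ran from 46.4% to 63.2%. The 2 sets in SF/a2i/L thus did not overlap, but they share no cell line. Line, genotype and culture history cannot be told apart between them. Kdm4c made up most of the KDM4 sum in 12 of 13 libraries and 47.6% in 2i-O48.

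Summed over the 4 methyltransferases the FPKM was 32.3 to 38.6 in the 5 libraries in 2i/L, 27.5 to 41.3 in TSa2i/L and 30.1 to 36.3 after the switch. Summed over the 5 demethylases it was 24.8 to 31.9, 14.2 to 24.6 and 16.8 to 19.0. The ratio of the demethylase to the methyltransferase sum was 0.988 (p18), 0.844 (p39) and 0.749 (p50) for 2i-14 in 2i/L, and 0.786 for either DMR-deleted line. It was 0.646 (p22), 0.642 (p47) and 0.610 (p54) for TSa2i-14, with 0.517 (p9) and 0.596 (p58) for TSa2i-C57. After the switch it was 0.462 for 2i-14, 0.629 for 2i-O48 and 0.557 for 2i-O48-TKO. All 8 libraries in SF/a2i/L lay below all 5 in 2i/L, and how many other gene sums separate in this way was not determined. The sums leave out other genes, Setdb1, Kdm1a and Jmjd1c among them. Kdm1a, a further demethylase gene, was at 38.4 to 47.9 FPKM in the paired 2i/L libraries. After the switch it was at 29.2 to 32.6 FPKM (limma adjusted p = 0.183). Jmjd1c, another such gene, went the other way, from 3.68 to 4.97 FPKM in the paired 2i/L libraries to 5.33 to 7.99 FPKM. It was higher in 3 of 3 lines (limma adjusted p = 0.201). Kdm3a is the largest part of the demethylase sum in 2i/L, and transcript sums do not measure enzyme activity.

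**Figure D4:**
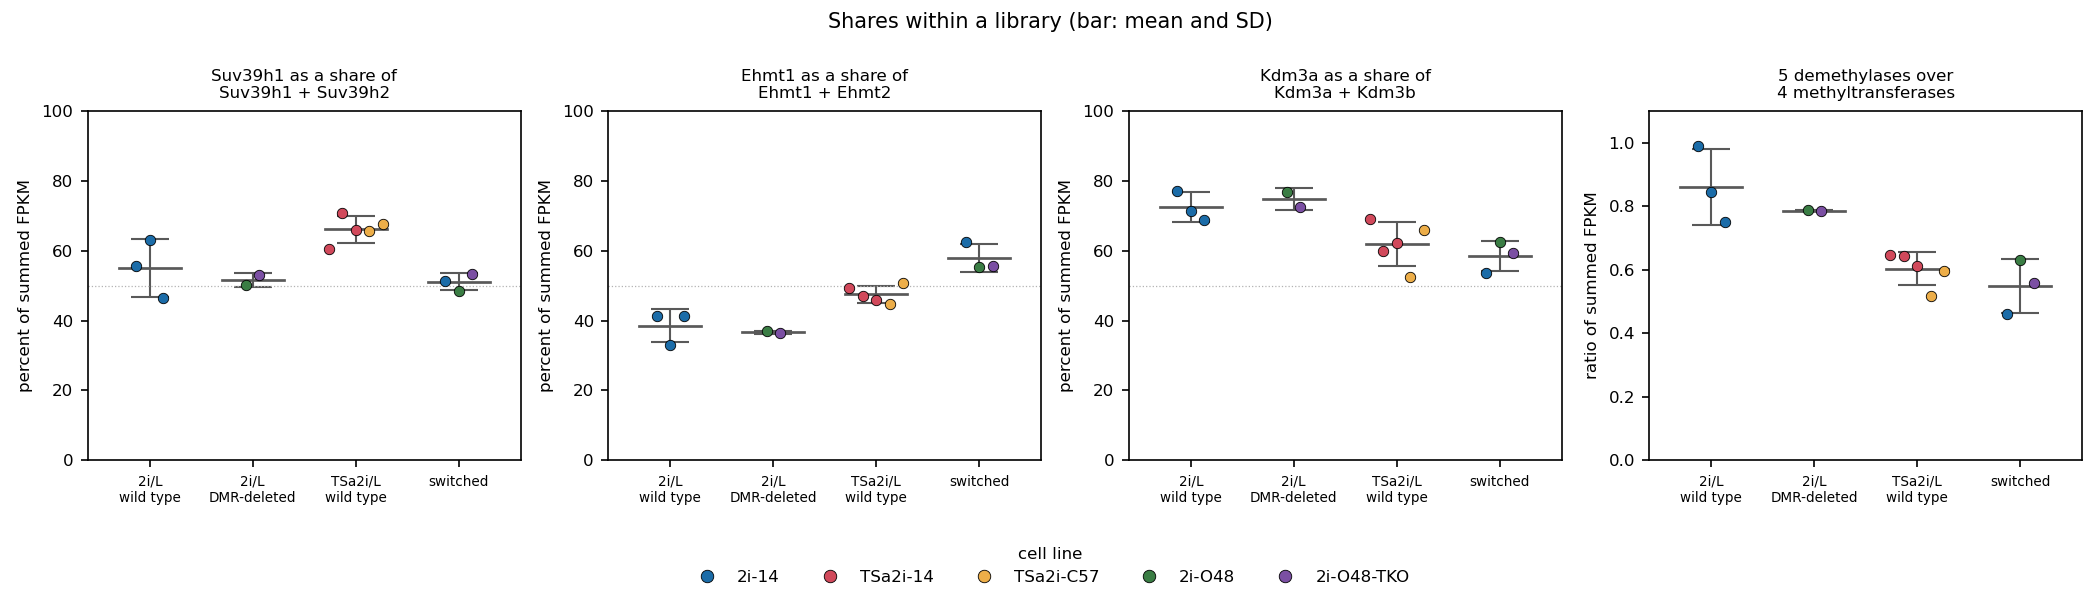
Shares of paralogs (percent of their summed FPKM, y axis from 0 to 100) and the ratio of summed demethylase to methyltransferase FPKM (right panel), by medium and genotype. Points are libraries coloured by line, with mean and SD. The Ehmt1 share is 33.1% to 41.3% in 2i/L, 44.7% to 50.7% in TSa2i/L, which holds other cell lines, and 55.4% to 62.6% after the switch. The ratio is under 0.65 in all SF/a2i/L libraries.

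Other genes of H3K9 methylation were read from the same fits. Of 5 other methyltransferases 3 passed the filter, and none was called in any comparison. Setdb1 was at 6.64 FPKM (p18), 8.24 FPKM (p39) and 7.12 FPKM (p50) for 2i-14, at 5.30 to 9.75 FPKM in TSa2i/L and at 7.78 to 9.07 FPKM after the switch, and differed by 0.04 with TSa2i/L (adjusted p = 0.938) and by 0.11 after the switch (adjusted p = 0.770). Of 6 other demethylases 3 were tested, with none called. Nor was any of the 8 cofactors and recruiters or the 8 readers and HUSH complex genes, all of which were tested. At an unadjusted p under 0.05 limma gave 0 of the 3 methyltransferases, 0 of the 3 demethylases, 1 of the 8 cofactors and 1 of the 8 readers with TSa2i/L, and 0, 1, 3 and 1 after the switch. With passage Setdb1 and 1 demethylase did, and with the DMR deletions none of these lists' genes did. Over all tested genes this share was 23.1% with TSa2i/L, 26.1% after the switch, 8.06% with passage and 5.79% with the DMR deletions. The shares called at an adjusted p under 0.05 were 7.57%, 6.89%, 0% and 0.118% in the same order. Over the 9 genes the median difference was -0.11 with TSa2i/L and -0.21 after the switch, against 0.07 and -0.09 over all tested genes.

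Of 26 other histone lysine methyltransferases and demethylases, 21 were tested with TSa2i/L and 20 after the switch, and 1 was called as lower in each, Smyd2 both times. SMYD2 methylates H3K36 and non-histone proteins such as p53. It was at 69.8 FPKM (p18), 45.6 FPKM (p39) and 55.8 FPKM (p50) for 2i-14, 55.7 and 42.4 FPKM in the DMR-deleted lines, 22.5 to 31.7 FPKM in TSa2i/L, and 12.1 to 12.6 FPKM in the 3 switched libraries. It fell by 1.06 with TSa2i/L (limma adjusted p = 0.00693) and by 1.96 after the switch (limma adjusted p = 0.00815, lower in 3 of 3 lines).

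**Figure D5:**
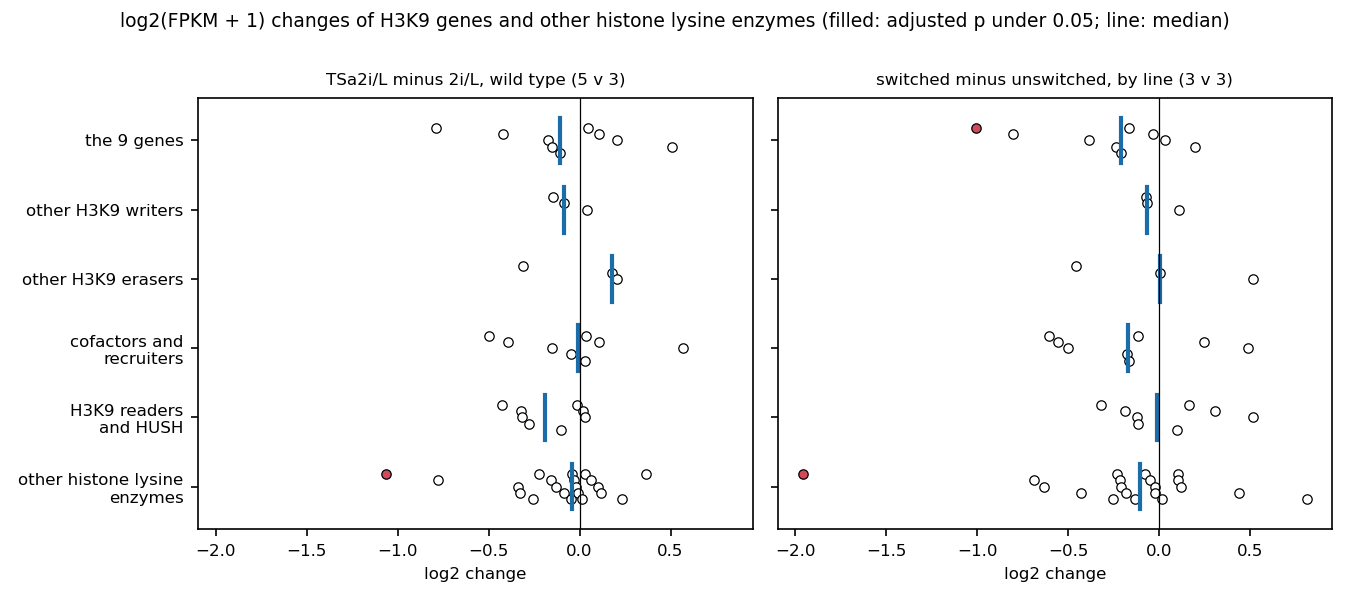
Change on the log2(FPKM + 1) scale (x axis) of each tested gene in 6 lists, for TSa2i/L against 2i/L and for the switch. Points are genes, filled where the adjusted p was under 0.05, and vertical lines are list medians. Filled points are Kdm3a after the switch at -1.01 and Smyd2 in both panels, at -1.06 and -1.96.

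The profile of Kdm3a over the 13 libraries was compared with those of 8062 genes that reached an FPKM of 1 in all of them, by the root mean square difference of centred log2(FPKM + 1). The 3 closest were Grsf1, which encodes an RNA-binding protein of mitochondria (difference 0.201), Rpp25, an RNase P subunit gene (0.216), and Ppm1g, a protein phosphatase gene (0.217), against an SD of 0.61 for Kdm3a itself. They ran at higher levels than Kdm3a, 27.3 to 92.7 FPKM for Grsf1, 44.6 to 164 FPKM for Rpp25 and 22.4 to 67.6 FPKM for Ppm1g.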

How the data were processed

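RNA-seq values of 13 libraries were analysed; the other 28 samples of the series, of methylation and chromatin sequencing, were not used here. Alignment by the authors used TopHat and mm9, and the deposited values are FPKM per gene symbol from Cufflinks, with no counts; the submitters' processing notes list TopHat2 2.0.11 and Cufflinks 2.2.1, and the gene annotation is not given in the sources used here. Each library listed 24525 rows. The rows of the 268 repeated symbols were summed.

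Tests used limma 3.58.1 in R 4.3.3 on log2(FPKM + 1), which understates changes of low genes, with an intensity trend, two-sided p and Benjamini-Hochberg adjustment over the genes tested, those reaching an FPKM of 1 in at least the number of libraries in the smaller group. All fold changes are on the FPKM + 1 scale unless given as FPKM ratios. The cell line was a block for the switch and the passage comparison. Pairing of the switch comes from the line named in the labels; deviations from the group means correlated at 0.17, -0.14 and 0.36 in the 3 lines over 9759 genes. Tests were checked on simulated data: of 100 genes changed by a log2 of 1, 69% were recovered with TSa2i/L, 48% with the switch, 58% with passage and 23% with the DMR deletions, and of those changed by 2, 96% to 100%.

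Depth was estimated from 3737 genes of known length, within 0.81% on simulated data. Feeder marker fits and the comparison of 8 with 5 libraries were added after the data were examined. Genes and lists were chosen with earlier results of these data known. The text names the 9 genes, list genes called in a comparison, Setdb1, Kdm1a, Jmjd1c, and the 3 genes closest to a called gene or to the most variable one. Python 3.11.15, numpy 2.4.6, pandas 2.3.3 and matplotlib 3.10.9 were used.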

Additional observations from a re-analysis of the deposited data

Results flagged for a closer look

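Of 9 genes tested for a library far from the others within the 5 TSa2i/L libraries, 1 stood out, and chance gives about 1 in 20. Kdm4b was at 2.33 FPKM in TSa2i-14 p47, where the next highest library held 1.34 FPKM.

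For 3 genes every late library lay above the early one of its line in at least 1 line and every one lay below it in another. There was 1 late library in TSa2i-C57 and 2 in each other line. The differences between lines were not tested, and the share of all genes with such a pattern was not determined. Suv39h2 differed by -0.45 in TSa2i-14 and by 0.55 in TSa2i-C57 on the log2(FPKM + 1) scale. Ehmt1 differed by -0.014 in 2i-14, by 0.25 in TSa2i-14 and by 0.41 in TSa2i-C57. In 2i-14 it was nearly equal at p18 and p50, at 5.190 and 5.189 FPKM. Kdm3a differed by -0.37 in 2i-14, by -0.28 in TSa2i-14 and by 1.40 in TSa2i-C57. The mean difference of Suv39h1 was also opposite in sign, -0.012 in 2i-14, 0.011 in TSa2i-14 and 0.69 in TSa2i-C57, although the 2 late libraries of 2i-14 lay on either side of the early one.

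As deposited, 3 genes were higher after the switch in the wild-type line and lower in both DMR-deleted lines, with 1 pair of libraries per line. None was called, and these differences were not tested either. The share of all genes with this pattern was not determined. Suv39h1 differed by 0.42 in 2i-14, by -0.27 in 2i-O48 and by -0.064 in 2i-O48-TKO. Suv39h2 differed by 0.16, -0.17 and -0.083 in the same order, and Kdm4b by 0.090, -0.17 and -1.07. The opposite signs depended on the scaling. The median of the tested genes differed after the switch by -0.053, -0.28 and -0.17 in these lines, and with each library centred on its median Suv39h1 differed by 0.48, 0.011 and 0.10, Suv39h2 by 0.21, 0.10 and 0.084, and Kdm4b by 0.14, 0.10 and -0.91.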

How the results depend on the processing

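Over all alternatives, 157 of 171 member values with TSa2i/L kept direction and side of the threshold, as did 84 of 98 with the switch, 149 of 162 with passage and 92 of 99 with the DMR deletions; the causes of the exceptions were not tested. With TSa2i/L, 786 genes were called, against 374 without a filter, 468 with TSa2i-14 only, 1250 with both DMR-deleted lines added to 2i/L and 229 without the 3 libraries richest in fibroblast RNA. Leaving out single libraries gave 383 to 846, with 383 without 2i-14 p39, 454 without p50, 508 without p18 and 440 without TSa2i-14 p47. Members called were 2 where all 8 libraries in SF/a2i/L stood against all 5 in 2i/L. With the switch, 672 genes and 1 member were called, against 0 and 0 without a filter (3206 genes at an unadjusted p under 0.05), 1505 and 2 with all passages of 2i-14, and 0 members with median centring and with quantile normalization. Leaving out single lines gave 311 (2i-O48-TKO), 1031 (2i-14) and 1461 (2i-O48) genes and 0 to 2 members. Without the line as a replicate block 778 genes were called, and the pairing changed no member's call. With passage 0 genes were called, also without the block, and 1 without the 3 fibroblast-rich libraries. With the DMR deletions 12 genes were called, 0 without a filter and 0 to 20 when single libraries were left out (0 without 2i-O48-TKO, 3 without 2i-O48, 8 without 2i-14 p18, 15 without p39, 20 without p50).

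Some small differences changed sign. With TSa2i/L, Ehmt1 was at -0.069 and Kdm4b at -0.011 under median centring, Ehmt1 at -0.088 and Kdm4b at -0.059 under quantile normalization, Kdm4a at -0.094 and Kdm4b at -0.10 with the DMR-deleted lines added, and Kdm4a at -0.061 and Kdm4b at -0.19 with 8 against 5 libraries. With the switch, Suv39h2 was at 0.13 under median centring and 0.13 under quantile normalization, 0.11 with all passages of 2i-14, and Kdm3b at 0.0019 under median centring. With passage, Suv39h2 was at 0.0096 with no replicate block. There Kdm3a was at -0.097 and Kdm4c at 0.023 with the fibroblast covariate, and Suv39h1 at -0.095, Kdm3a at -0.51 and Kdm4c at 0.042 without the fibroblast-rich libraries. Leaving out single libraries with TSa2i/L gave -0.24 to 0.031 for Suv39h2, -0.039 to 0.14 for Ehmt1 and -0.021 to 0.29 for Kdm4b. Leaving out lines of the switch gave -0.16 to 0.18 for Suv39h1, -0.13 to 0.037 for Suv39h2 and -0.62 to 0.11 for Kdm4c; Kdm4b was not tested without 2i-O48-TKO. With passage the ranges were -0.00012 to 0.30 for Suv39h1, -0.21 to 0.25 for Suv39h2 and -0.33 to 0.44 for Kdm3a, and with the DMR deletions -0.027 to 0.15 for Suv39h1, -0.038 to 0.26 for Ehmt1, -0.34 to 0.19 for Kdm3a, -0.020 to 1.06 for Kdm4b and -0.66 to 0.45 for Kdm4c. FPKM values keep no counts, so depth was only estimated, and Kdm4a and Kdm4b, near 1 FPKM, rest on the fewest fragments.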
